A study of Mus musculus with 90 samples.

Results

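CXC chemokines are small secreted proteins, 1 of them also held in the membrane, that direct leukocyte migration. Of 8 mouse genes chosen by name for the family (Cxcl1, Cxcl2, Cxcl3, Cxcl9, Cxcl10, Cxcl11, Cxcl14 and Cxcl16), 7 had probes on the array and Cxcl3 had none. They were represented by 13 of 16281 array features, matched by the gene symbol of the probe annotation. The cells were RAW 264.7, an established mouse macrophage line derived from a virus-induced tumour. They received 5 nM interferon gamma (IFG) together with 100 ng/ml lipopolysaccharide (LPS), 500 µM 2-methyl-thio-ATP (2MA) together with 100 ng/ml LPS, or 100 ng/ml LPS, 5 nM IFG or 500 µM 2MA alone, each for 1, 2 or 4 h. The lipid binding protein that presents LPS to its receptor was listed at 100 pM for LPS alone and was not listed for the combinations. RNA of each condition was hybridized on dual-colour oligonucleotide arrays with untreated RNA of the same time, in 3 numbered sets with both dye orientations, so that 90 arrays made 45 replicates of 15 conditions. Separate cultures are not stated for the sets, nor is it stated whether treatments shared untreated RNA. P-values therefore measure only the spread between these samples, which may be technical.

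Macrophages release CXC chemokines within hours of sensing microbial products. Cxcl1, Cxcl2 and Cxcl3 signal through Cxcr2 and attract neutrophils, and their genes carry sites for the factor NF-kB, which LPS activates through its receptor Tlr4. Cxcl9, Cxcl10 and Cxcl11 bind Cxcr3 on T cells and natural killer cells and are known as interferon-inducible chemokines. Cxcl16 is a membrane-bound ligand of Cxcr6 that proteases shed, and Cxcl14 is mostly a tissue-resident, homeostatic chemokine. 2MA is an agonist of P2 purine receptors, which sense extracellular nucleotides.

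Gene order and promoter letters are shown first, as background. In the RefSeq annotation, with coding genes ordered by start coordinate, Cxcl1 and Cxcl2 follow each other on chromosome 5. In that order only Art3 comes between Cxcl9 and Cxcl10 on the same chromosome. Where the genes end was not compared. The RefSeq promoter table (GRCm38.p6) held 6 of the 8 genes. Printed below are the 250 bases before the start of Cxcl2 (chr5:90903649-90903898, plus strand), Cxcl1 (chr5:90890995-90891244, plus strand), Cxcl10 (chr5:92348890-92349139, minus strand) and Cxcl9 (chr5:92328080-92328329, minus strand), 5′ to 3′ along the gene. Capitals mark matches, on either strand, to the NF-kB consensus or to GAAANNGAAA, the core of the interferon-stimulated response element. The NF-kB consensus was taken as GGGRNWYYCC, where R is A or G, N any base, W is A or T and Y is C or T.
Cxcl2: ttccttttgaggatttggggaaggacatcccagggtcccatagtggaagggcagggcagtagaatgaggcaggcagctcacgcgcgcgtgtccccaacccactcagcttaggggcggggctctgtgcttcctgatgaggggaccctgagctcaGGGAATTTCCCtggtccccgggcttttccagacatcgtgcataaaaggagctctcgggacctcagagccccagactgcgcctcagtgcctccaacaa
Cxcl1: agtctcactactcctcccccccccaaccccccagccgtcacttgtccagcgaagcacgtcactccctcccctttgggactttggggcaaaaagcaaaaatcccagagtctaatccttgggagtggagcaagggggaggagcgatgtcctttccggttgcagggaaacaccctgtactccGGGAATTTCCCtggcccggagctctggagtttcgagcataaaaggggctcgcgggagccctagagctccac
Cxcl10: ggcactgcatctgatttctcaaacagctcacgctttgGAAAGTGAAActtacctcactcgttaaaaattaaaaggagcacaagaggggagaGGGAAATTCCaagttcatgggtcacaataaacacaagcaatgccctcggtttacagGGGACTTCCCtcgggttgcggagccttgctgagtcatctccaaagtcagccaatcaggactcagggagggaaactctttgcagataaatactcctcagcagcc
Cxcl9: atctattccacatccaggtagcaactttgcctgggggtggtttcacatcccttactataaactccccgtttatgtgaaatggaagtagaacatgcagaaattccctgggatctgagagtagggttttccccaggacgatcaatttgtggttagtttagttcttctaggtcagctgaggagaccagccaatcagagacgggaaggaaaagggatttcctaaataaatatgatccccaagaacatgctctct
In Cxcl2 and in Cxcl1 the capitals are 2 overlapping NF-kB matches on opposite strands. In Cxcl10 they are 1 match to GAAANNGAAA, GAAAGTGAAA at bases 213 to 204 before the start, and 2 NF-kB matches further down. The Cxcl9 window held neither, and none of the 4 windows held TTCNNNGAA, the gamma-activated site. Of the windows not printed, Cxcl3 held the same pair of NF-kB matches, and Cxcl14 held 1 match each to GAAANNGAAA and TTCNNNGAA. Of 32851 promoter windows of the same length, 3.9% held the NF-kB consensus, 2.98% held GAAANNGAAA and 7.02% held TTCNNNGAA. These matches describe letters and not bound sites, and their part in the ratios was not tested.

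Values are log2 ratios of treated over untreated RNA, so 1 stands for a 2-fold higher and -1 for a 2-fold lower ratio. Each replicate averages both dye orientations of 1 set, and conditions are given as mean ± SD over 3 replicates unless another n is stated. The direction of the deposited ratio, Cy5 over Cy3, is likely and not stated. It rests on the dye labels and on red over green being the usual form of such ratios. Between 7.84 and 17% of an array's values were listed as exactly 0 and were treated as missing, and no value lay above 6.64, the log2 of a 100-fold ratio. The lowest correlation between arrays of the same dye orientation was 0.16. A ratio gives no expression level, so levels of different genes, and of macrophage markers, could not be set against each other. Precision is limited by the number of arrays.

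The chemokines were measured very unevenly. Cxcl1, Cxcl9, Cxcl14 and Cxcl16 had no condition with fewer than 2 measured replicates, through 5 probes, and they entered a fit of 11600 features (9760 named genes and 1840 features without a gene name), with p-values from limma adjusted by Benjamini-Hochberg over all features. Cxcl2, Cxcl10 and Cxcl11 did not, because their probes were listed at 0 on many arrays. These 3 genes and the second Cxcl9 probe were tested probe by probe, in a fit that asks for values only in the compared conditions. That filter was chosen after the data had been seen, and a probe is tested only where it gave a value, so the number of its calls is a description and no support. Calls that were lost when exact zeros were kept as a ratio of 1, or when all arrays were scaled to equal spread, are given with the values under those settings. Kept zeros also enter the spread shared by all conditions. A call can thus be lost where the compared conditions held no zero and the difference stayed the same. A feature was called where the adjusted p was under 0.05 and the difference was at least 2-fold. The p-values use a spread pooled over all conditions, so they do not measure the SD printed beside a mean.

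**Figure D1:**
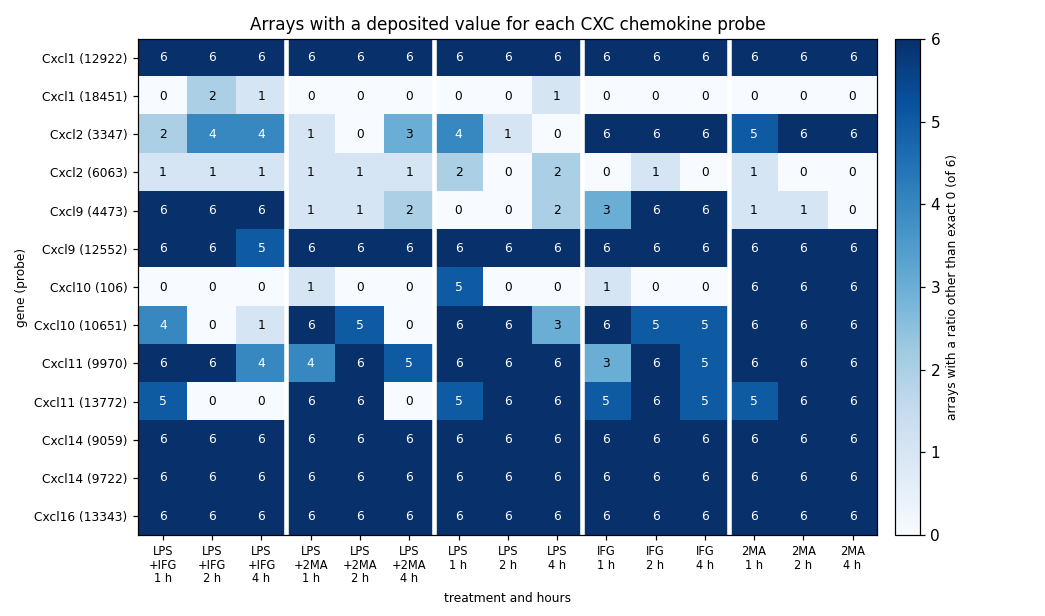
Number of arrays, of 6 for each condition, on which each CXC chemokine probe (rows) had a deposited ratio other than exact 0, by treatment and hours (columns). Cxcl1 probe 12922, both Cxcl14 probes and the Cxcl16 probe had 90 of 90 arrays, whereas Cxcl10 probe 106 had 25.

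The zeros did not fall evenly over the conditions. Among the 450 values of the 5 informative probes of Cxcl2, Cxcl10 and Cxcl11, 158 were exact zeros, and in 16 combinations of probe and condition all 6 arrays were at 0. Cxcl10 probe 106 had a value on all 6 arrays of 2MA at each time. The same probe was at 0 on all 6 arrays of LPS+IFG at each time and of LPS and IFG at 2 and 4 h. The other Cxcl10 probe, 10651, read mean ratios of 3.89 to 4.10 at 2 h of LPS and IFG. Cxcl11 probe 13772 was at 0 on all 6 arrays of LPS+IFG at 2 and 4 h, while Cxcl11 probe 9970 averaged 5.54 ± 0.20 and 4.99 ± 0.58 (n = 2 at 4 h) there. Cxcl9 probe 4473 went the other way, with values on all 6 arrays at each time of LPS+IFG and, of the LPS arrays, on 2 at 4 h only. What set a value to 0 was not tested. A second probe of Cxcl1 (18451) had a value on 4 arrays and a second probe of Cxcl2 (6063) on 12, from -1.71 to 1.75, and neither gave enough replicates for a test.

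Against untreated RNA, the 4 fully measured genes gave 13 calls in 60 tests, all higher, and the informative probes of Cxcl2, Cxcl10 and Cxcl11 gave 37 calls in 49 tests, all higher. Of all 11600 features, 1.69%, 3% and 4.58% were called higher at 1, 2 and 4 h of LPS+IFG, 1.15%, 2.22% and 4.69% of LPS+2MA, 1.03%, 1.84% and 3.64% of LPS, 0.353%, 1.06% and 1.69% of IFG, and 0.259%, 0.319% and 0.112% of 2MA. In the probe-by-probe fit the shares were 2.01%, 3.35% and 4.88% for LPS+IFG, 1.41%, 2.52% and 4.96% for LPS+2MA, 1.24%, 2.12% and 3.97% for LPS, 0.451%, 1.2% and 1.91% for IFG, and 0.32%, 0.434% and 0.24% for 2MA. Called either way, the shares of all features ran from 0.147% at 4 h of 2MA to 6.71% at 4 h of LPS+IFG, and with the opposite direction of the ratio higher and lower calls would change places. The genes were chosen with earlier results of these data known, and the 13 calls came from Cxcl9 and Cxcl16 alone.

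Cxcl9, a Cxcr3 ligand, had the highest ratios among the 4 fully measured genes, and its response followed IFG. It rose in all 6 conditions with IFG, 5.56-fold to 54.5-fold, and was not called in any condition without IFG. After LPS+IFG the replicates were 5.35, 4.53 and 5.62 at 1 h, 5.95, 5.30 and 5.49 at 2 h, and 5.57 and 5.96 at 4 h, where the other set lacked an array. After IFG alone they were 2.39, 2.60 and 2.44 at 1 h, 4.11, 4.13 and 3.77 at 2 h, and 4.56, 4.75 and 5.39 at 4 h. At each time every LPS+IFG replicate lay above every IFG replicate. All 6 means passed the test (adjusted p of 1.09e-15 or less, limma). The 1 h array of set 3 with LPS+IFG RNA in Cy5 stood at the 6.64 limit, so its ratio may be understated. Its dye swap read only 4.60. The Cy5 array of this pair was also the higher for Cxcl9 probe 4473 (6.41 and 4.22) and Cxcl11 probe 13772 (6.23 and 3.89). It may thus also read too high, and which array was off was not tested. Both arrays enter the replicate of 5.62. With each set left out in turn, the 1 h mean ran from 4.94 to 5.49.

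Without IFG, no mean of Cxcl9 reached 2-fold. LPS+2MA gave 0.07 ± 0.14, 0.14 ± 0.20 and 0.44 ± 0.12 at 1, 2 and 4 h, LPS gave 0.03 ± 0.07, 0.15 ± 0.09 and 0.49 ± 0.18, and 2MA gave -0.07 ± 0.16, 0.01 ± 0.11 and -0.03 ± 0.09. The 4 h means of LPS+2MA (adjusted p = 0.0109) and LPS (adjusted p = 0.00539) differed from 0, by less than 2-fold, with all 3 replicates above 0 in each. The second Cxcl9 probe, 4473, read 4.90 ± 0.77, 5.27 ± 0.18 and 5.37 ± 0.22 after LPS+IFG and 3.69 ± 0.46 and 4.68 ± 0.63 at 2 and 4 h of IFG. It gave lower means than probe 12552 in each of these 5 conditions. Probe 4473 had a value on 41 arrays and enough replicates for a test only in these 5 conditions, all with IFG and with high Cxcl9, so nothing is read from its calls there.

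Cxcl10, the Cxcr3 ligand also called IP-10, rose after LPS and after IFG, and had smaller ratios after 2MA. Probe 10651 had a value on 65 arrays. After LPS+2MA its replicates were 3.95, 3.06 and 4.24 at 1 h and 4.39 and 4.17 at 2 h, and at 4 h all 6 arrays were at 0. After LPS they were 3.03, 2.47 and 3.44 at 1 h and 4.34, 3.55 and 3.78 at 2 h, with 1 complete replicate of 4.67 at 4 h. The LPS+2MA and LPS replicates overlapped at both times. After IFG the means were 3.38 ± 0.33 at 1 h, 4.10 ± 0.13 at 2 h and 3.78 ± 0.07 at 4 h (n = 2 at 2 and 4 h). All of these conditions with at least 2 replicates were called (adjusted p of 5.83e-11 or less). LPS+IFG could not be tested, since it gave 4 arrays at 1 h, from 3.11 to 3.84, none at 2 h and 1 array of 5.03 at 4 h.

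After 2MA alone, Cxcl10 probe 10651 read 1.07, 0.84 and 0.57 at 1 h, 1.32, 0.96 and 0.62 at 2 h, and 1.58, 1.10 and 0.86 at 4 h. Every replicate was above 0 and below every LPS and IFG replicate. The 4 h mean, 1.18 ± 0.36, was called (adjusted p = 0.00117), and without set 1 it was 0.98, below 2-fold. The call was also lost with equal spread (1.28, adjusted p = 0.154) and with zeros kept (adjusted p = 0.482). The means at 1 h (0.83 ± 0.25, adjusted p = 0.0303) and 2 h (0.97 ± 0.35, adjusted p = 0.00825) passed on p and were below 2-fold, and without set 3 the 2 h value was 1.14 and called. Probe 106 gave larger means after 2MA, 1.26 ± 0.34, 1.51 ± 0.79 and 1.50 ± 0.30, and was called at all 3 times (adjusted p = 0.0187, 0.00437 and 0.00427). Those 3 calls were lost without set 1, with adjusted p of 0.4, 0.162 and 0.0988, and the 1 h call also without set 2 (adjusted p = 0.0588) and with 1 dye orientation enough for a replicate (adjusted p = 0.0621). At 1 h of LPS this probe read 3.28 ± 0.60 (n = 2, adjusted p = 3.85e-06).

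Cxcl11, the third Cxcr3 ligand, rose after IFG and, later, after LPS. Probe 9970 had a value on 81 arrays. After LPS+IFG its replicates were 2.77, 3.25 and 3.15 at 1 h, 5.52, 5.75 and 5.35 at 2 h, and 4.59 and 5.40 at 4 h. After LPS+2MA they were 0.93 and 0.93 at 1 h, 2.92, 2.90 and 2.58 at 2 h, and 5.50 and 5.48 at 4 h. Each replicate of both combinations was higher at 4 h than at 1 h. After LPS alone the replicates were 0.42, 0.46 and 0.31 at 1 h, 2.09, 2.06 and 1.11 at 2 h, and 4.26, 4.63 and 3.88 at 4 h. After IFG alone there was 1 replicate at 1 h (1.79), and the means were 3.38 ± 0.47 at 2 h and 4.77 ± 0.67 at 4 h (n = 2). Called conditions reached 46.5-fold at 2 h of LPS+IFG (adjusted p = 3.15e-20), 44.9-fold at 4 h of LPS+2MA (1.82e-18), 19.1-fold at 4 h of LPS (1.02e-17) and 27.4-fold at 4 h of IFG (2.72e-16). The 1 h means of LPS (0.40 ± 0.08, adjusted p = 0.382) and LPS+2MA (0.93, n = 2, adjusted p = 0.0123, below 2-fold) were not called. Ratios of probe 9970 were higher with treated RNA in Cy5 (mean 3.00) than in Cy3 (mean 2.23).

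The second Cxcl11 probe, 13772, gave higher means than probe 9970 at 1 and 2 h of every treatment where it had a value, except 1 h of 2MA (0.17 for 13772 and 0.29 for 9970). It gave 4.43 ± 0.89 (n = 2) at 1 h of LPS+IFG, and 2.30 ± 0.50 and 3.97 ± 0.30 at 1 and 2 h of LPS+2MA. LPS gave 1.05 ± 0.44 (n = 2), 3.25 ± 0.58 and 4.59 ± 0.24, and IFG gave 2.82 ± 0.48 (n = 2), 4.06 ± 0.36 and 4.34 ± 0.18 (n = 2). All of these were called, the 1 h value of LPS with an adjusted p of 0.0239. That call was lost without set 2 or set 3, with equal spread (adjusted p = 0.0559) and with zeros kept (0.91, adjusted p = 0.151). The probes disagreed on 2MA. Probe 13772 read 2.33, 1.63 and 1.19 at 4 h of 2MA and was called (mean 1.72 ± 0.57, adjusted p = 5.35e-05), whereas probe 9970 read 0.78, 0.71 and -0.04 and was not (mean 0.48 ± 0.46, adjusted p = 0.296).

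Cxcl2, the neutrophil attractant also called MIP-2, rose after 2MA alone as well as after LPS, and it was not called after IFG. Probe 3347 had a value on 54 arrays, and set 3 had no complete replicate in any condition with LPS. After LPS+IFG the replicates were 4.93 and 4.73 at 2 h (28.5-fold, adjusted p = 1.72e-09) and 4.03 and 4.00 at 4 h (adjusted p = 1.54e-08), with only 2 arrays, 4.95 and 3.86, at 1 h. After LPS alone they were 4.98 and 4.00 at 1 h (22.5-fold, adjusted p = 2.71e-08). At 2 h of LPS 1 array read 4.95, and at 4 h none had a value. LPS+2MA gave 1 array of 4.21 at 1 h, none at 2 h and 3 arrays from 4.64 to 5.46 at 4 h.

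After 2MA alone, Cxcl2 read 3.73 and 2.44 at 1 h, 3.50, 2.39 and 1.48 at 2 h, and 2.19, 1.34 and 1.66 at 4 h. All 3 means were called, 3.08 ± 0.91 (n = 2, adjusted p = 4.51e-05), 2.46 ± 1.01 (adjusted p = 5.86e-05) and 1.73 ± 0.43 (adjusted p = 0.00304). Without set 1 the 4 h call was lost (1.50, adjusted p = 0.108). With zeros kept, all 3 calls were lost, at 2.83, 2.46 and 1.73 (SE 0.86, adjusted p = 0.122, 0.293 and 0.555). At 2 and 4 h of 2MA all 6 arrays had a value, so these means did not change and the loss came from the spread shared with other conditions. The 4 h value was not called against 1 h (difference -1.36, adjusted p = 0.414). With a dye term on all 90 arrays it was called lower (-1.68, adjusted p = 0.00404). The 1 h mean lacks set 1, whose only 1 h array read 4.66. After IFG the replicates were -1.13, -0.31 and -1.82 at 1 h, all below 0, and the means were -1.09 ± 0.76, -0.76 ± 0.46 and 0.14 ± 0.35, with adjusted p of 0.149, 0.368 and 0.881. The 1 h value of IFG was called lower with treated RNA in Cy3 only (-1.19, adjusted p = 0.0467). It was also called with only the compared conditions fitted (SE 0.19, adjusted p = 0.0037) and with the dye term (SE 0.24, adjusted p = 0.00375). The last 2 left the difference at -1.09, so those calls did not come from a larger difference. No decrease is read from these calls.

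**Figure D2:**
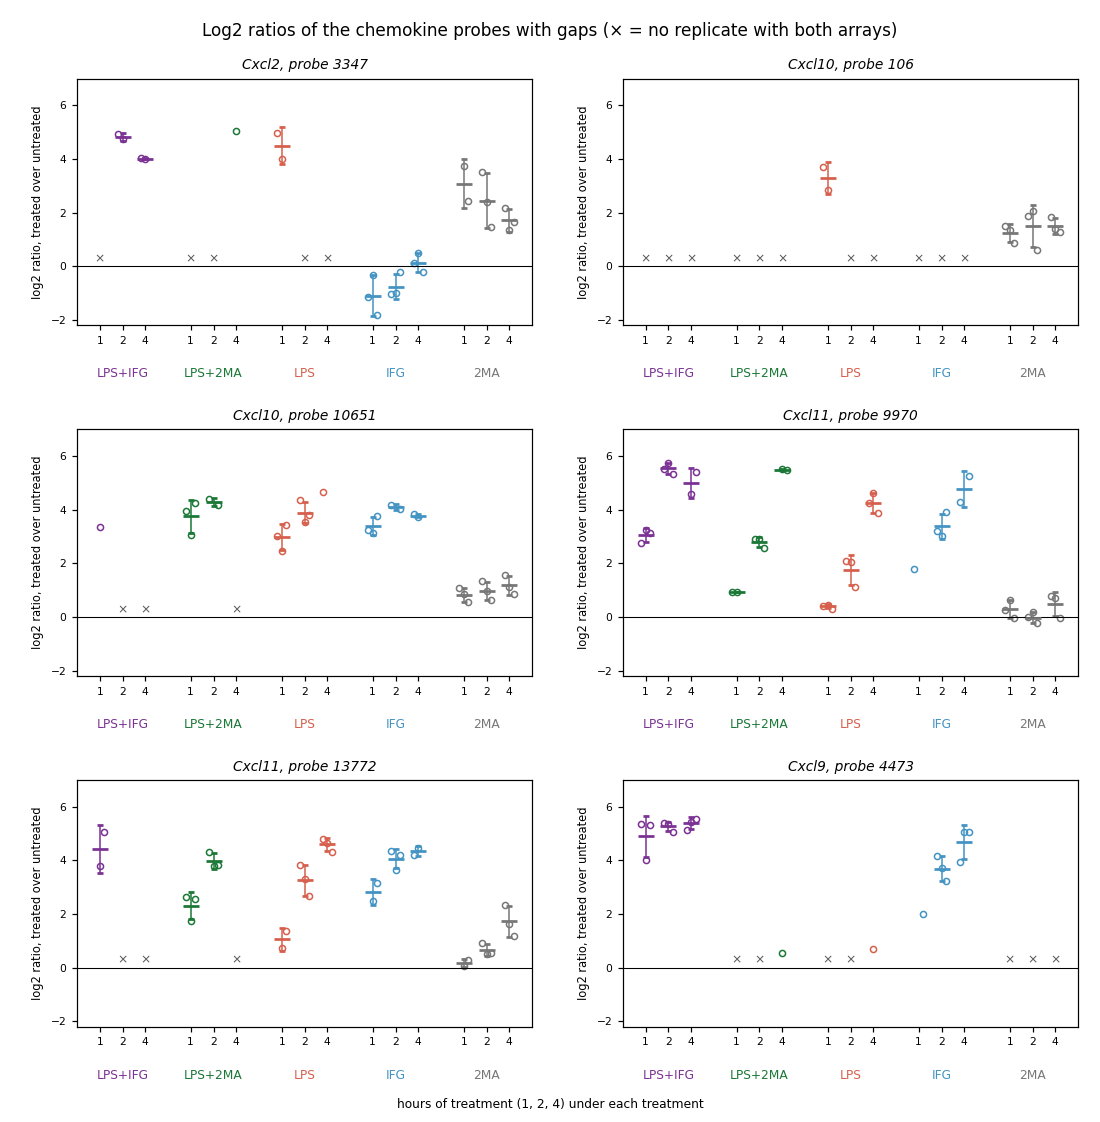
Log2 ratios of treated over untreated RNA (vertical axis) for probes of Cxcl2, Cxcl10, Cxcl11 and Cxcl9 that lack values in some conditions, by treatment and hours (horizontal axis). Circles are replicates, bars are the mean ± SD, and a cross marks a condition with no replicate measured on both arrays. Cxcl2 is above 1 after 2MA at all 3 times, and Cxcl11 probe 9970 climbs to 4.26 at 4 h of LPS.

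Cxcl1, a neutrophil attractant that LPS is known to raise in macrophages, was not called in any of the 15 conditions. Probe 12922 had a ratio on all 90 arrays, and its condition means ran from -0.10 ± 0.23 (2 h of IFG) to 0.70 ± 0.62 (1 h of LPS+2MA). The 1 h replicates after LPS+2MA were 0.38, 1.42 and 0.31, so that set 2 stood apart (adjusted p = 0.002, below 2-fold). After LPS alone they were 0.34, 0.15 and 0.10 at 1 h, and the means at 2 and 4 h were 0.14 ± 0.19 and 0.16 ± 0.23. The ratio of this probe depended on the dye, with a mean over arrays of 0.31 with treated RNA in Cy5 and -0.08 with treated RNA in Cy3. Cross-hybridization between Cxcl1, Cxcl2 and Cxcl3, which are close paralogs, could not be examined because probe sequences were not used here.

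Cxcl16, the membrane-bound Cxcr6 ligand, rose in every treatment that held LPS or IFG and climbed with time. After LPS+IFG the replicates were 1.03, 1.01 and 0.87 at 1 h, 2.34, 1.86 and 1.74 at 2 h, and 3.04, 2.67 and 2.47 at 4 h. After LPS+2MA the means were 0.69 ± 0.13, 1.39 ± 0.29 and 2.00 ± 0.04. All replicates of both combinations lay above 0. After LPS alone the means were 0.72 ± 0.13, 1.32 ± 0.50 and 1.77 ± 0.19, and after IFG alone they were 0.18 ± 0.08, 0.59 ± 0.10 and 1.37 ± 0.25. It was called at 2 and 4 h of LPS+IFG, LPS+2MA and LPS and at 4 h of IFG (adjusted p of 1.87e-10 or less), 2.49-fold to 6.61-fold. The 1 h means of the 3 treatments with LPS also passed the test on p (adjusted p of 0.000156 or less), below 2-fold, and that of LPS+IFG was 1.02 without set 3 and then called. The 2 h mean of IFG passed on p as well (adjusted p = 0.00209). 2MA alone gave means of 0.08 to 0.11, with replicates on both sides of 0 at 1 and 2 h.

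Cxcl14 was not called in any condition either. Its highest means were at 2 h (0.53 ± 0.66) and 4 h (0.50 ± 0.43) of 2MA and its lowest at 4 h of LPS+IFG (-0.43 ± 0.13), with adjusted p of 0.298, 0.236 and 0.0819. Set 1 read highest and set 2 lowest at both times of 2MA, at 1.19 and -0.13 at 2 h. Both Cxcl14 probes, 9059 and 9722, had all 90 arrays, and their ratios were lower with treated RNA in Cy5 than in Cy3 (-0.22 and 0.40 for probe 9059, -0.15 and 0.07 for probe 9722).

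**Figure D3:**
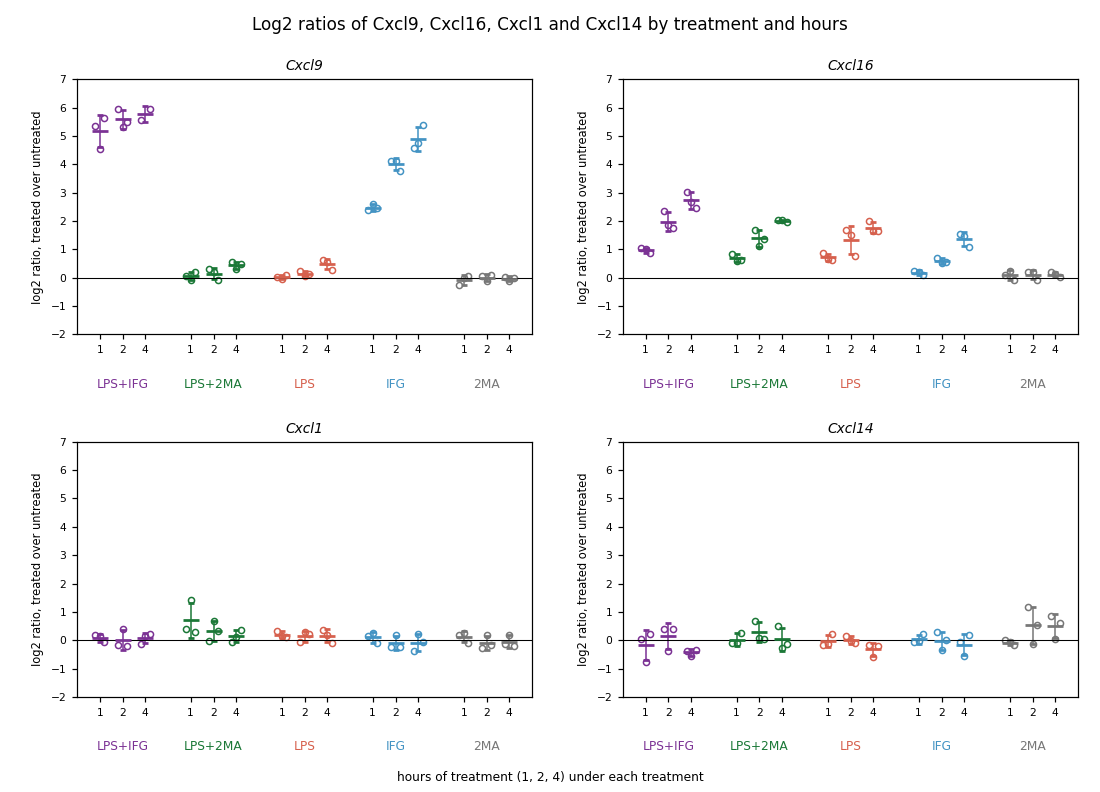
Log2 ratios of treated over untreated RNA (vertical axis) for Cxcl9, Cxcl16, Cxcl1 and Cxcl14 by treatment and hours (horizontal axis). Circles are replicates, and bars are the mean ± SD. Cxcl9 lies above 2 in every condition with IFG and below 1 elsewhere, Cxcl16 climbs with time in 4 treatments, and the means of Cxcl1 and Cxcl14 stay within 1 of 0.

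LPS+IFG was compared with LPS alone. The lipid binding protein was listed for LPS alone only, so its absence and the added IFG cannot be told apart here. Cxcl9 was higher in LPS+IFG at all 3 times, by 5.14, 5.43 and 5.28 (SE 0.19, 0.19 and 0.22, adjusted p = 1.22e-20, 1.95e-21 and 2.08e-19). It was the only called member in 24 tests of the 4 genes against LPS, with 3 calls, where 0.655%, 0.94% and 1.03% of all features were called either way at 1, 2 and 4 h of LPS+IFG. Cxcl16 was higher in LPS+IFG by 0.66 at 2 h (adjusted p = 0.0311) and 0.96 at 4 h (adjusted p = 0.000383), below 2-fold, and every LPS+IFG replicate lay above every LPS replicate at both times. Without set 1 of LPS or set 3 of LPS+IFG the 4 h difference of Cxcl16 was 1.07 and 1.09 and was called. Cxcl11 probe 9970 was higher by 2.66 at 1 h (SE 0.27, adjusted p = 4.03e-08) and 3.79 at 2 h (SE 0.27, adjusted p = 1.91e-11). With zeros kept the 1 h difference was unchanged and the call was lost (2.66, SE 0.83, adjusted p = 0.26). At 4 h the Cxcl11 difference was 0.74 (SE 0.31, adjusted p = 0.274), and probe 13772 gave 3.38 at 1 h (SE 0.40, adjusted p = 2.57e-06). Those were the 3 calls in 11 tests of the Cxcl2, Cxcl10 and Cxcl11 probes against LPS, with 0.764%, 1.08% and 1.14% of all probes called at the 3 times.

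In the main fit, which did not pair the sets, no member was called between LPS+2MA and LPS. Here too the listed lipid binding protein differed, which cannot be told apart from the added 2MA. The shares of all features called between LPS+2MA and LPS were 0.069%, 0.0259% and 0.112% at 1, 2 and 4 h, and 0.104%, 0.0344% and 0.111% of all probes in the probe-by-probe fit. For Cxcl9 the differences were 0.04, -0.01 and -0.05 (SE 0.19) and for Cxcl16 -0.02, 0.07 and 0.24 (SE 0.18). Cxcl10 probe 10651 differed by 0.77 (SE 0.28, adjusted p = 1) at 1 h and 0.39 (SE 0.31, adjusted p = 0.999) at 2 h. Cxcl11 probe 9970 was higher in LPS+2MA by 1.05 (SE 0.27, adjusted p = 0.242) at 2 h and 1.23 (SE 0.31, adjusted p = 0.0944) at 4 h, where both LPS+2MA replicates lay above all 3 LPS replicates. With the set number as a replicate block, which paired LPS+2MA with LPS, the 4 h difference was 1.21 and was called (adjusted p = 0.0172). Probe 13772 likewise gave 1.25 at 1 h (SE 0.36, adjusted p = 0.684) and 1.18 with the block (adjusted p = 0.0295). A dye term on all 90 arrays called both as well, at 1.29 for probe 9970 at 4 h (adjusted p = 0.00507) and 1.24 for probe 13772 at 1 h (adjusted p = 0.0352). The block raised the calls of the Cxcl2, Cxcl10 and Cxcl11 probes against LPS to 5, with 3 without it.

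LPS+IFG was also set against IFG, and these comparisons share the LPS+IFG samples with those against LPS. Cxcl9 was higher in LPS+IFG by 2.69 at 1 h (SE 0.19, adjusted p = 1e-11) and 1.58 at 2 h (SE 0.19, adjusted p = 2.46e-07), and by 0.87 at 4 h (SE 0.22, adjusted p = 0.00543), below 2-fold. The 4 h difference of Cxcl9 was 1.11 without set 3 of IFG and 1.06 without set 1 of LPS+IFG, and was then called. The second Cxcl9 probe differed by 1.58 at 2 h (SE 0.34) and 0.69 at 4 h (SE 0.34). That probe had enough replicates only in conditions with IFG and high Cxcl9, so nothing is read from its tests here either. When the spread of all arrays was scaled to be equal, the 2 h difference of Cxcl9 was 0.02 (adjusted p = 0.992). Cxcl16 was higher by 0.80, 1.39 and 1.36 (SE 0.18, adjusted p = 0.00546, 4.14e-07 and 5.57e-07), called at 2 and 4 h, and under the equal-spread scaling by 0.996 and 0.838 there, below 2-fold. The 4 genes thus gave 4 calls in 12 tests, with 1.12%, 2.15% and 2.6% of all features called at 1, 2 and 4 h.

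Of the Cxcl2, Cxcl10 and Cxcl11 probes, 4 calls in 5 tests separated LPS+IFG from IFG, with 1.36%, 2.42% and 2.81% of all probes called. Cxcl2 was higher by 5.59 at 2 h (SE 0.49, adjusted p = 5.82e-08) and 3.88 at 4 h (SE 0.49, adjusted p = 9.13e-06). With zeros kept the 4 h difference of Cxcl2 was 2.54 and the call was lost (adjusted p = 0.259). Cxcl11 probe 9970 was higher by 2.16 at 2 h (SE 0.27, adjusted p = 8.78e-07), or 0.66 with equal spread (adjusted p = 0.714), lost also with zeros kept (adjusted p = 0.145), and did not pass at 4 h (0.22, SE 0.33, adjusted p = 0.871). Probe 13772 was higher by 1.61 at 1 h (SE 0.40, adjusted p = 0.0212), a call that was lost without set 2 of IFG or set 3 of LPS+IFG (1.27 and 0.98), with equal spread (0.41), with zeros kept (1.37), with treated RNA in Cy3 only (1.14) and with only the compared conditions fitted (adjusted p = 0.0601).

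LPS against IFG gave calls in opposite directions. Cxcl9 was lower after LPS than after IFG by 2.45, 3.86 and 4.41 on the log2 scale (differences of -2.45, -3.86 and -4.41, SE 0.19, adjusted p = 2.7e-11, 1.51e-16 and 1.95e-18), the 3 calls in 12 tests, where 1.22%, 2.29% and 2.72% of all features were called. Cxcl2 went the other way, higher after LPS by 5.58 at 1 h (SE 0.49, adjusted p = 1.21e-07), and with zeros kept by 4.08, no longer called (adjusted p = 0.091). Cxcl11 was lower after LPS by probe 13772 at 1 h (-1.77, SE 0.40, adjusted p = 0.00942) and by probe 9970 at 2 h (-1.62, SE 0.27, adjusted p = 8.9e-05), and at 4 h neither probe was called (-0.52 for 9970 and 0.26 for 13772). With zeros kept both Cxcl11 calls were lost, at -1.47 for probe 13772 (adjusted p = 0.138) and -1.62 for probe 9970 (adjusted p = 0.384). The Cxcl2, Cxcl10 and Cxcl11 probes had 1 call higher and 2 lower in 8 tests, with 1.39%, 2.46% and 2.95% of all probes called. Cxcl10 was not called (-0.40 and -0.21 at 1 and 2 h, adjusted p = 1 and 0.884), nor was Cxcl16, which was higher after LPS by 0.54, 0.73 and 0.40 (adjusted p = 0.127, 0.00568 and 0.19). Without set 3 of LPS the 2 h difference of Cxcl16 was 1.01 and was called, and the 1 h call of probe 13772 was lost without set 2 of LPS (-1.45) or set 3 of IFG (-1.43).

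**Figure D4:**
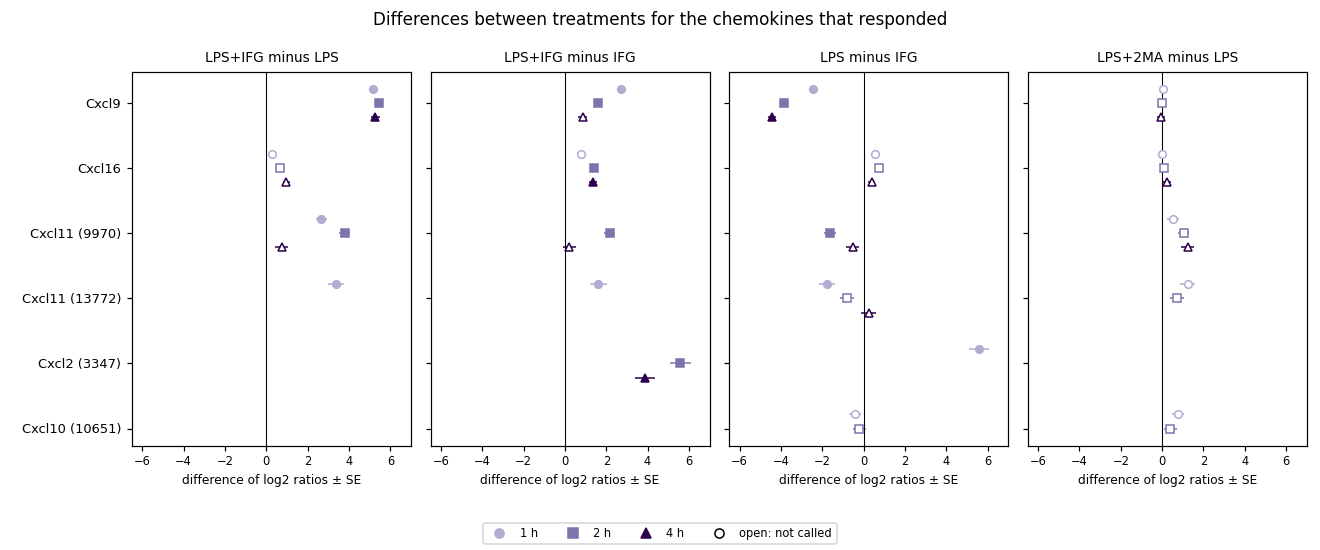
Differences in log2 ratio (horizontal axis, ± SE) between treatments at 1, 2 and 4 h for the CXC chemokines and probes that responded and could be tested (rows). Filled points were called (adjusted p under 0.05 and at least 2-fold) and open points were not. Cxcl9 is above 5 in LPS+IFG minus LPS at each time, and no LPS+2MA minus LPS point is filled.

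The 4 h ratios were also compared with those at 1 h. Cxcl16 was higher at 4 h than at 1 h in LPS+IFG (1.75), LPS+2MA (1.31), IFG (1.19) and LPS (1.05), each with SE 0.18 and adjusted p of 3.09e-05 or less. The LPS value was 0.94 without its 4 h set 1 and thus below 2-fold. With equal spread, Cxcl16 was no longer called in LPS+2MA (0.88) or LPS (0.59, adjusted p = 0.0736). Cxcl9 was higher at 4 h than at 1 h of IFG by 2.42 (SE 0.19, adjusted p = 1.11e-10), or 1.35 with equal spread, no longer called (adjusted p = 0.0535), and in LPS+IFG by 0.60 (SE 0.22, adjusted p = 0.0508). These were 5 calls in 20 tests, with 4.77%, 5.13%, 3.68%, 1.25% and 0.147% of all features called in LPS+IFG, LPS+2MA, LPS, IFG and 2MA. Cxcl11 probe 9970 was higher at 4 h by 4.56 in LPS+2MA (adjusted p = 4.92e-12), 3.86 in LPS (3.14e-12) and 1.94 in LPS+IFG (1.45e-05). The LPS+IFG call was lost with equal spread (0.92, adjusted p = 0.396) and with zeros kept (0.27, adjusted p = 0.96). Probe 13772 gave 3.54 in LPS (adjusted p = 3.95e-08) and 1.52 in IFG (0.0235), the last lost without set 2 at 1 h (1.18) or without set 1 (1.65) or set 2 (1.39) at 4 h, with equal spread (-0.41), with zeros kept (1.29) and with treated RNA in Cy5 only (1.42). These were 5 calls in 12 tests of the Cxcl2, Cxcl10 and Cxcl11 probes, against 5.11%, 5.37%, 3.9%, 1.39% and 0.152% of all probes in the same order of treatments.

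The combinations were also compared with the sum of the single treatments on the log2 scale, which stands for the product of the folds. The sum includes LPS with lipid binding protein, which was not listed for the combinations, so its part cannot be told apart. Cxcl9 exceeded the sum in LPS+IFG at 1 h (5.17 against a sum of 2.50, difference 2.67, SE 0.24, adjusted p = 4.39e-09) and at 2 h (5.58 against 4.15, difference 1.43, SE 0.24, adjusted p = 0.000709). At 4 h it did not (5.77 against 5.39, adjusted p = 0.858). With equal spread the differences were 1.92 at 1 h (adjusted p = 0.274) and -0.14 at 2 h, so that neither call held under that scaling. The 2 h call was also lost with treated RNA in Cy3 only (1.14, adjusted p = 0.0921) and with zeros kept (1.50, adjusted p = 0.0536). Those were 2 calls in 24 tests of the 4 genes, where 0.0862%, 0.302% and 1.38% of all features were called for LPS+IFG and 0.00862%, 0.00862% and 0.0517% for LPS+2MA. Cxcl16 lay within 0.41 of the sum in every combination, and none of its 6 differences was called.

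Among the Cxcl2, Cxcl10 and Cxcl11 probes, 1 of 10 tests against the sum was called. Cxcl11 probe 9970 at 4 h of LPS+IFG stood at 4.99 against a sum of 9.03 (difference -4.03, SE 0.39, adjusted p = 1.89e-08). That sum lies above 6.64, the highest value in the deposited table, so no measurement could have reached it. At 2 h of LPS+IFG the same probe gave 5.54 against 5.13. The shares of all probes called were 0.113%, 0.324% and 1.5% for LPS+IFG and 0.021%, 0.0207% and 0.0701% for LPS+2MA.

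**Figure D5:**
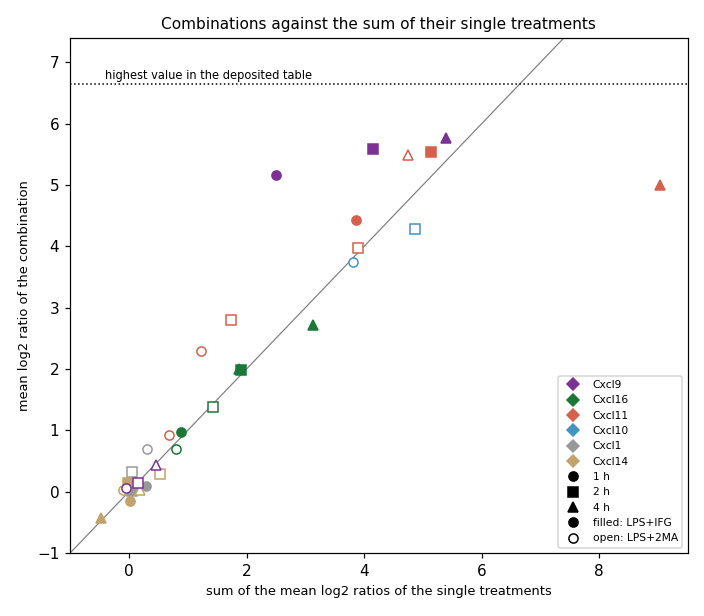
Mean log2 ratio of each combination (vertical axis) against the sum of the mean log2 ratios of its single treatments (horizontal axis), for CXC chemokines and probes with values in all 3 treatments. The dotted line marks 6.64, the highest value in the table. Cxcl9 lies above the diagonal at 1 and 2 h of LPS+IFG, and Cxcl11 probe 9970 lies below it at 4 h of LPS+IFG.

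Genes with the condition profile most like that of Cxcl9 and Cxcl16 were ranked by Pearson's r over the 15 condition means, among 982 candidates whose mean reached at least 1 in size somewhere. For Cxcl9 they were Ltb4r1 (0.981), a leukotriene B4 receptor, Irf8 (0.961), an interferon-regulated transcription factor, and Crem (0.957), a cyclic AMP-responsive transcription factor. For Cxcl16 they were Jak2 (0.976), a kinase of cytokine receptors, Cd40 (0.962), a costimulatory receptor, and Rab12 (0.96), a small GTPase. The conditions share replicate sets and perhaps untreated RNA, so the points are not independent.

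Of 7 other CXC chemokine genes, 6 were tested, and the called values were Cxcl12 at 1 h (1.04 ± 0.42, adjusted p = 0.000161) and 2 h (1.15 ± 0.21, adjusted p = 1.07e-05) of IFG and Cxcl15 at 4 h of LPS+2MA (1.07 ± 0.75, adjusted p = 2.19e-08). Of 8 receptors, 7 were tested. Cxcr3, the receptor of Cxcl9, Cxcl10 and Cxcl11, was lower at 4 h of LPS+IFG (-1.12 ± 0.15, adjusted p = 7.67e-10), and Ackr1, a scavenging receptor, was higher at 2 h of LPS+IFG (1.05 ± 0.48, adjusted p = 6.68e-10). All 7 proteases that cut or shed chemokines were tested. Mmp9, a gelatinase, was higher at 4 h of LPS+2MA (1.12 ± 0.37) and LPS (1.24 ± 0.20), and Mmp14, a membrane-bound metalloproteinase, at the same times (1.29 ± 0.67 and 1.06 ± 0.42), with adjusted p of 1.14e-06 or less. These p-values rest on the pooled spread, and the SDs of Cxcl15, Ackr1 and Mmp14 were wide beside their means.

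Of 14 regulators of chemokine transcription and mRNA decay, 11 were tested, and none was called lower. At 1, 2 and 4 h, 5, 6 and 7 were higher in LPS+IFG, 3, 4 and 8 in LPS+2MA, 3, 4 and 8 in LPS, 3, 4 and 6 in IFG, and 2, 1 and 0 in 2MA. At 4 h the median over the 11 was 2.36 in LPS+IFG, 2.08 in LPS+2MA, 1.87 in LPS, 1.16 in IFG and 0.25 in 2MA, where the median of all features was -0.01 in LPS+IFG, -0.01 in LPS+2MA and 0.00 in LPS. Zfp36, which promotes decay of AU-rich mRNAs, was called in 13 conditions, Nfkbiz, a nuclear partner of NF-kB, in 12, and Irf1, an interferon-induced transcription factor, in 10. Nfkbiz read 5.04 ± 0.50 at 1 h of LPS and 2.34 ± 1.21 at 1 h of 2MA, both called. Irf1 was called at 1 h of IFG (3.45 ± 0.50) and of LPS+IFG (3.87 ± 0.62). Of 7 macrophage markers 5 were tested. Fcgr3, an Fc receptor, was higher at 2 and 4 h of LPS+IFG (1.16 ± 0.30 and 1.45 ± 0.22) and of IFG (1.33 ± 0.24 and 1.48 ± 0.40), and lower at 4 h of LPS+2MA (-1.32 ± 0.26) and LPS (-1.21 ± 0.27). Csf1r, the receptor of a macrophage growth factor, was lower at 4 h of LPS+IFG (-1.29 ± 0.25) and LPS+2MA (-1.08 ± 0.42). Of all features, the share called higher ran from 0.112% at 4 h of 2MA to 4.69% at 4 h of LPS+2MA. With so few markers tested, nothing is read from the number of marker calls. The part of these shifts in the chemokine ratios was not tested.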

How the data were processed

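Ratios of treated over untreated RAW 264.7 RNA were taken from the deposited log2 values of 90 dual-colour arrays. Per the file headers and labels, each array is 1 treatment and time against time-matched untreated RNA. The image analysis and normalization were not given in the sources used here. The array medians were 0. The ratio's direction (Cy5 over Cy3) is likely and was not stated, and signs were turned on arrays with treated RNA in Cy3. In 37 of 45 dye-swapped pairs the unturned arrays correlated below 0.

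Exact zeros were treated as missing. Both orientations of 1 set were averaged into 1 replicate, missing if either array was. Of 16281 probes, 13738 had 1 gene symbol, and the other 2543 had several or none. Probes with at least 2 of 3 replicates in every condition (13711) were averaged by gene to 11600 features. Condition means were fitted over all 15 conditions with limma 3.58.1 in R 4.3.3, with moderated variances and Benjamini-Hochberg adjustment per comparison, for 38 comparisons. The probe-by-probe filter was added after seeing the data. The fit was tested on simulated data. Figures used Python 3.11.15 and matplotlib 3.10.9.

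Same-numbered sets were taken to pair LPS+IFG with LPS, LPS+2MA with LPS, and LPS+IFG with IFG, because their deviations from the condition means correlated above 0.1 in all 9 pairs of each (lowest 0.175, 0.119 and 0.109). LPS and IFG did so in 8 of 9. The pairing comes from the data and not from the labels. The main fit did not use it, so the main p-values and calls are unpaired, and it entered only through the replicate block.

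The members and the lists (other CXC genes, receptors, proteases, regulators, macrophage markers) were chosen with earlier results of these data known. All members with a probe were named, with up to 3 genes per list, those called in most conditions, and the 3 genes most like each called member among the 4 fully measured. Alternatives were 1 dye orientation, equal spread, recentring, kept zeros, stricter and looser filters, single probes, only the compared conditions, a dye term, a replicate block, and leaving out each replicate. The dye term counted both arrays of a pair, with 1 correlation (0.271) for all features. It can thus understate the spread of a probe whose dye swaps repeat each other closely. The effect of the alternatives is given in the closing section.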

Additional observations from a re-analysis of the deposited data

Results flagged for a closer look

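Changes between 4 h and 1 h of the same treatment were picked out because the difference itself passed the limma test at 2-fold or more. For Cxcl9 the difference was 2.42 in IFG. For Cxcl16 it was 1.75 in LPS+IFG, 1.31 in LPS+2MA, 1.05 in LPS and 1.19 in IFG. For Cxcl11 probe 9970 it was 1.94 in LPS+IFG, 4.56 in LPS+2MA and 3.86 in LPS, and for Cxcl11 probe 13772 it was 3.54 in LPS and 1.52 in IFG. With equal spread the calls of Cxcl9 in IFG (1.35), Cxcl16 in LPS+2MA (0.88) and LPS (0.59), Cxcl11 probe 9970 in LPS+IFG (0.92) and probe 13772 in IFG (-0.41) were lost. With zeros kept, those of probe 9970 in LPS+IFG (0.27) and probe 13772 in IFG (1.29) were lost. All replicates of a group numbered 3 at most, so no single replicate was tested for standing apart.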

How the results depend on the processing

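Of the single results of the members, 2436 kept their call status, called or not, over the alternatives other than leaving out a replicate. Among these, a result called under neither setting could change sign and still count as kept. Another 33 lost the call, 18 gained it and 2 reversed. Both reversals came from scaling all arrays to equal spread. They were Cxcl9 in LPS+IFG against the sum at 2 h (-0.14) and Cxcl11 probe 13772 in IFG at 4 h against 1 h (-0.41). By the same rule, leaving out a replicate kept 1233, lost 16 and added 8.

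Calls of the 4 fully measured genes moved as follows. Against untreated RNA, features with every replicate left 7 of 13. Combinations against LPS had 0 of 3 by that filter, which Cxcl9 does not pass. LPS+IFG against IFG had 1 with equal spread and 2 with every replicate, of 4. LPS against IFG had 0 of 3 with every replicate. At 4 h against 1 h, there were 2 with equal spread, of 5. Against the sum, the 2 became 1 with treated RNA in Cy3 only, 1 with zeros kept, 0 with equal spread and 0 with every replicate.

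For probes of Cxcl2, Cxcl10 and Cxcl11, combinations against LPS had 8 calls with zeros kept, 5 with the replicate block and 5 with a dye term, against 3. LPS+IFG against IFG had 2 with equal spread, against 4. LPS against IFG had 1 with zeros kept, against 3. At 4 h against 1 h there were 3 with equal spread, and 8 each with zeros kept, 1 orientation enough or a dye term, against 5. Against the sum there were 2 with Cy5 only, 2 with Cy3 only, 8 with zeros kept and 2 with 1 orientation enough, against 1. With zeros kept every probe was tested in every comparison, also where its arrays were at 0. With Cy5 only, Cy3 only or 1 orientation enough, a replicate needed 1 array, so more comparisons could be tested. The main counts came from 11 tests against LPS, 12 at 4 h against 1 h and 10 against the sum. Counts under those settings are thus not comparable with the main ones. Apart from this and from filters that drop features or arrays, the cause was not tested.

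With each replicate left out, the counts in the order above ran over 13 to 14, 3 to 4, 4 to 5, 3 to 4, 4 to 5 and 2 to 2 for the 4 genes. For the probes they ran over 34 to 38, 3 to 3, 3 to 4, 2 to 3, 4 to 6 and 1 to 1. Pairing by set changed no other call of a paired comparison than those given for Cxcl11. Beyond these, the replicate block called 2MA at 4 h against 1 h for Cxcl11 probe 13772 (1.48, adjusted p = 0.0411, against 1.55 and 0.0728). That difference was also called without set 3 at 4 h (1.81). The block joined same-numbered sets within a time and did not pair 4 h with 1 h. Only 7 of 15 correlations between a set at 4 h and its namesake at 1 h of the same treatment exceeded 0.1 (range -0.505 to 0.405), so those times were not taken as paired. Signal over background could not be judged from ratios.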
